A study of Homo sapiens with 6 samples.

Results

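The 10 genes described here encode proteins that store, import, export and sense iron, with the enzyme that breaks down heme. They were taken by name from the deposited expression table: FTH1, FTL, FTMT, HMOX1, TFRC, STEAP3, SLC11A2, SLC40A1, IREB2 and ACO1. The choice was made with earlier results of these data known. All 10 names stood in the table among 26790 usable gene rows, and 9 of them reached 1 FPKM (fragments per kilobase of transcript, scaled to the fragments mapped) in at least 1 column, as did 12930 genes in all. The samples were C4-2 cells, a long-established LNCaP derivative used as a model of advanced prostate cancer, at passages 10 to 15 in RPMI-1640 with 10% serum. The conditions were vehicle; GSK126, an inhibitor of the histone methyltransferase EZH2; astemizole, an antihistamine reported to disrupt the pairing of EZH2 with EED; lentivirus with a scramble shRNA; and lentivirus with either of 2 EZH2 shRNAs. There were 6 libraries, 1 for each of the first 4 conditions and 1 for each EZH2 hairpin, but the table holds 1 EZH2 knockdown column whose name does not say which hairpin was used. Vehicle is the control for both drugs and scramble shRNA for the knockdown. The labels give no dose or duration for either drug.

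Iron enters most cells bound to transferrin through the transferrin receptor, is reduced by a STEAP reductase in the endosome and crosses into the cytosol through SLC11A2 (DMT1). What is not used is stored in ferritin, a shell of heavy (FTH1) and light (FTL) chains, or leaves through ferroportin (SLC40A1). The iron regulatory proteins ACO1 (IRP1) and IREB2 (IRP2) bind hairpins called iron-responsive elements when iron is scarce. A hairpin in the 5′ UTR, as in the ferritin and ferroportin mRNAs, then blocks translation, while hairpins in the 3′ UTR of the transferrin receptor mRNA protect it from decay. Ferritin and heme oxygenase genes are also known targets of NRF2, the transcription factor of the antioxidant response.

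The hairpins are shown because their place, in the 5′ or the 3′ UTR, differs between the FTL and SLC40A1 mRNAs and the TFRC mRNA. The matches do not sort the members by how their mRNA is controlled. Human reference transcripts (GENCODE release 29, build GRCh38) were searched for a C, 5 bases, a loop of CAGTG or CAGAG followed by A, C or T, and 5 bases able to pair with the first 5, G-T pairs allowed, on the transcript strand only. Members without an entry in the RefSeq sequence table used here, FTH1 and HMOX1, were not searched. Of the other 8 members 4 held a match, against 434 of 19669 protein-coding gene names (2.21%). Each line gives 29 bases of the transcript with the 6-base loop in capitals. The FTL match lies in the 5′ UTR at chr19:48965335-48965363 (plus strand), the SLC40A1 match in the 5′ UTR at chr2:189580661-189580689 (minus strand), and the TFRC matches in the 3′ UTR, from chr3:196051029-196051057 for the first to chr3:196050463-196050491 for the last (minus strand).
FTL, 5′ UTR: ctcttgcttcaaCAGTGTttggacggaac
SLC40A1, 5′ UTR: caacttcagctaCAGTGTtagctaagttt
TFRC, 3′ UTR, hairpin 1: atttatcagtgaCAGAGTtcactataaat
TFRC, 3′ UTR, hairpin 2: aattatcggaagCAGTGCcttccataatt
TFRC, 3′ UTR, hairpin 3: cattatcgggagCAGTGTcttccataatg
TFRC, 3′ UTR, hairpin 4: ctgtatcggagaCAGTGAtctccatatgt
TFRC, 3′ UTR, hairpin 5: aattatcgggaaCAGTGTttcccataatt
TFRC thus carried 5 matches and FTL and SLC40A1 1 each. The remaining match was in the 3′ UTR of STEAP3, with the loop CAGAGC. A match is a description of the sequence and not evidence of binding, and SLC11A2, which has a known 3′ element in some isoforms, held no match to this pattern.

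Differences are given as the log2 ratio of FPKM + 1 in a treated column over FPKM + 1 in its control, and a gene was counted as higher or lower at 2-fold or more. With 1 value per condition there is no replicate spread, so no test, error or p-value is given and each ratio describes these libraries only. GSK126 and astemizole share the vehicle column. EZH2, the targeted gene, was at 3.35 FPKM in the knockdown column against 24.6 in its scramble control, and at 9.48 (astemizole) and 17.5 (GSK126) against 26.5 in the vehicle library. The luminal prostate markers KLK3, KLK2 and HOXB13 were at 111 FPKM or more in every column. The absolute depth is unknown because FPKM holds no totals. Ratios to vehicle were taken over genes below 0.5 FPKM in every column and above 0 in both columns compared. The most common ratio was 0.949 (GSK126), 1.05 (astemizole) and 0.859 (scramble shRNA). These ratios were read as the FPKM of 1 read relative to vehicle, and none was taken for the knockdown column.

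Ferritin and heme oxygenase transcripts were higher with astemizole. Because the members were chosen with earlier results known, the counts below are not those of an unselected set. With astemizole 3 of the 9 measured members were at least 2-fold higher than with vehicle and 0 lower, where 3.53% of the 12930 genes passed 2-fold upward and 9.02% in either direction. With GSK126 the count was 0 of 9, against 2.00% of all genes, and with the knockdown 0 of 9, against 7.04%; with 9 genes, a count of 0 is near these shares and is no result about the members. The median log2 ratio of the 9 members was 0.54 with astemizole, -0.08 with GSK126 and 0.08 with the knockdown, beside medians over all genes of -0.06, -0.04 and 0.03. At 1.5-fold the counts were 4, 0 and 0 members, against 25.1%, 11.3% and 19.9% of all genes; the member added with astemizole was ACO1. Between the control columns, scramble shRNA against vehicle, 0 of 9 members passed 2-fold (1.02% of all genes did) and 1 passed 1.5-fold (6.02% of all genes did). The latter was HMOX1, lower with scramble shRNA at -0.67, followed by FTH1 at -0.57.

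**Figure D1:**
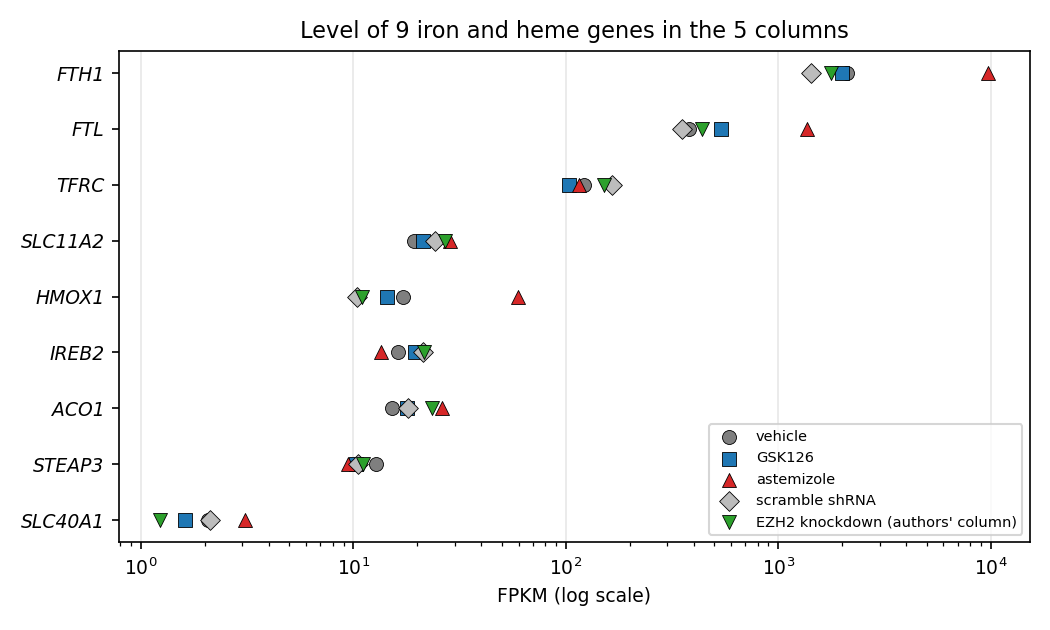
FPKM on a log axis of the 9 members measured, 1 row per gene, with 1 symbol for each of the 5 columns. The astemizole triangles of FTH1 (9758), FTL (1363) and HMOX1 (59.5) stand to the right of the other 4 symbols, while the TFRC symbols lie between 103 and 166.

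FTH1, the ferroxidase chain of ferritin, was the most abundant member in every column. The vehicle library held 2104 FPKM, GSK126 1990, astemizole 9758, scramble shRNA 1422 and the knockdown 1767. The astemizole value was above the other 4, which lay within 1.48-fold of each other. The level with astemizole was 4.64-fold that with vehicle, a log2 ratio of 2.21, which ranked 22 from the highest among the 12930 genes. By level FTH1 ranked 7 among these genes with astemizole and 64 with vehicle, and its share of the summed FPKM was 1.26% against 0.265%. With GSK126 the log2 ratio was -0.08 and with the knockdown 0.31.

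FTL, the light chain, which promotes mineralisation of the iron core and has no ferroxidase site, had 381 FPKM (vehicle), 536 (GSK126), 1363 (astemizole), 353 (scramble shRNA) and 440 (knockdown). Astemizole was again highest, at 3.57-fold vehicle (log2 ratio 1.84), and GSK126 came next, at 1.41-fold vehicle (0.49). The knockdown column was 1.25-fold scramble shRNA (0.32). The other 4 columns lay within 1.52-fold of each other.

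The heavy and light chain mRNAs were not in the same proportion throughout. FTH1 FPKM over FTL FPKM was 5.52 (vehicle), 3.71 (GSK126), 7.16 (astemizole), 4.02 (scramble shRNA) and 4.01 (knockdown). The heavy chain thus weighed most with astemizole and least with GSK126, and the knockdown and its control differed little. Together the 2 chains made up 1.44% of the summed FPKM with astemizole and between 0.269% and 0.369% in the other columns.

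FTMT, the mitochondrial ferritin, was listed at 0 in all 5 columns, which may be a failed estimate and is given no ratio. FTH1 has many processed copies in the genome, and the sources used here do not say how reads shared between copies were assigned. The table held 4 ferritin-like names (FTH1P3, FTHL17, FTH1P18 and FTLP10), the highest of which, FTH1P3, was at 0.284 FPKM with vehicle and 0.0593 with astemizole. In GENCODE release 29 the exons of BEST1, an anion channel gene on the opposite strand, share 1267 bases with those of FTH1. BEST1 had 0.925 FPKM (vehicle), 0.921 (GSK126), 6.66 (astemizole), 0.646 (scramble shRNA) and 0.483 (knockdown). The sources used here do not say whether the libraries kept strand, so reads of FTH1 and BEST1 may not be separable.

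HMOX1 encodes the inducible heme oxygenase, which opens the heme ring and frees its iron. The vehicle library held 17.1 FPKM, GSK126 14.4, astemizole 59.5, scramble shRNA 10.4 and the knockdown 11.0. The astemizole value lay above all others, and both lentiviral columns lay below the vehicle and GSK126 columns. The level with astemizole was 3.49-fold that with vehicle, a log2 ratio of 1.74, which ranked 61 from the highest among the 12930 genes. With GSK126 the ratio was -0.23 and with the knockdown 0.08. HMOX2, the constitutive enzyme, stood between 33.5 and 44.0 FPKM in all columns, so that HMOX1 was at 0.423 times HMOX2 with vehicle and at 1.35 times HMOX2 with astemizole. From vehicle to astemizole HMOX1 went from place 5 to place 4 in level among the members. In both lentiviral columns it took place 8, within 1.01-fold of STEAP3.

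**Figure D2:**
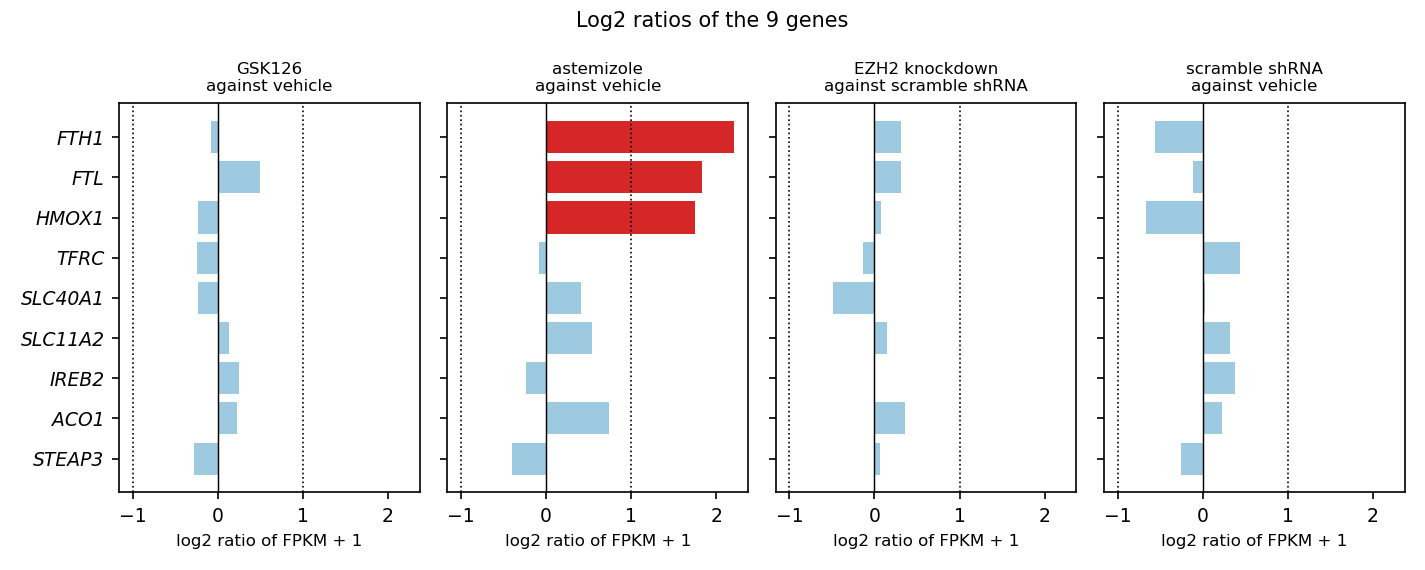
Log2 ratio of FPKM + 1 for each of the 9 members in 3 treated columns against their controls and, at the right, between the 2 control columns; dotted lines mark 2-fold and red bars are past it. FTH1 (2.21), FTL (1.84) and HMOX1 (1.74) pass 2-fold with astemizole, and no bar does so in the other panels.

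TFRC, the transferrin receptor and the member with 5 hairpins above, had 122 FPKM (vehicle), 103 (GSK126), 115 (astemizole), 166 (scramble shRNA) and 151 (knockdown). Both lentiviral columns were above the other 3, and within each pair of treated and control columns the log2 ratios were -0.25 with GSK126, -0.09 with astemizole and -0.13 with the knockdown. The difference between the controls, 0.43, was wider than any of these. FTH1 FPKM over TFRC FPKM was 17.2 (vehicle), 19.3 (GSK126), 84.8 (astemizole), 8.59 (scramble shRNA) and 11.7 (knockdown).

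STEAP3, a ferrireductase of the transferrin endosome, had 12.7 FPKM (vehicle), 10.3 (GSK126), 9.43 (astemizole), 10.5 (scramble shRNA) and 11.1 (knockdown). It had the narrowest range of the measured members, 1.35-fold from lowest to highest, and its log2 ratios were -0.28, -0.40 and 0.07 for GSK126, astemizole and the knockdown. An antisense gene, STEAP3-AS1, overlaps it, with the same limit on strand as for FTH1. STEAP3 was not the main STEAP transcript of these cells: STEAP1 stood between 169 and 344 FPKM and STEAP2, also a metalloreductase, between 72.5 and 144. Both were highest with astemizole, at log2 ratios to vehicle of 0.85 and 0.98. Between the controls, scramble shRNA against vehicle, the ratios were -0.10 for STEAP1 and 0.57 for STEAP2.

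SLC11A2, the endosomal iron transporter, had 19.3 FPKM (vehicle), 21.3 (GSK126), 28.5 (astemizole), 24.4 (scramble shRNA) and 27.1 (knockdown). It took place 4 in level among the members in every column but the astemizole one, where HMOX1 was above it. The log2 ratios were 0.13, 0.54 and 0.15 in the order used above. Since the scramble column was itself 0.32 above vehicle, astemizole was 0.22 above scramble shRNA.

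SLC40A1, which encodes ferroportin, the known exporter of cellular iron, was the lowest member above 0. The vehicle library held 2.07 FPKM, GSK126 1.62, astemizole 3.09, scramble shRNA 2.13 and the knockdown 1.24. The order put astemizole highest and the knockdown lowest, with both controls between them. The log2 ratios of -0.23, 0.41 and -0.48 understate differences at this level, because 1 FPKM is added to both columns; as plain FPKM the knockdown column was at 0.582 times scramble shRNA.

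The mRNAs of the iron regulatory proteins differed from each other with astemizole. ACO1, a cytosolic aconitase that becomes an RNA-binding protein when it loses its iron-sulfur cluster, had 15.2 FPKM (vehicle), 17.9 (GSK126), 26.1 (astemizole), 18.0 (scramble shRNA) and 23.4 (knockdown). IREB2, which is degraded when iron is plentiful, stood at 16.2, 19.4, 13.5, 21.4 and 21.4 FPKM in the same order. Astemizole was thus the highest column for ACO1 and the lowest for IREB2, with log2 ratios of 0.74 and -0.24. Between the controls, scramble shRNA against vehicle, the ratios were 0.23 for ACO1 and 0.38 for IREB2, the latter wider than the -0.24 of IREB2 with astemizole. Against scramble shRNA the astemizole ratios were 0.51 for ACO1 and -0.62 for IREB2, and neither gene passed 2-fold against either control. ACO1 was at 1.93 times IREB2 with astemizole and between 0.843 and 1.09 times in the other columns. With GSK126 the ratios were 0.22 for ACO1 and 0.25 for IREB2, and with the knockdown 0.36 and 0.00. FBXL5, the iron-sensing ligase subunit that marks IREB2 protein for degradation, had ratios of 0.18, 0.71 and 0.27.

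**Figure D3:**
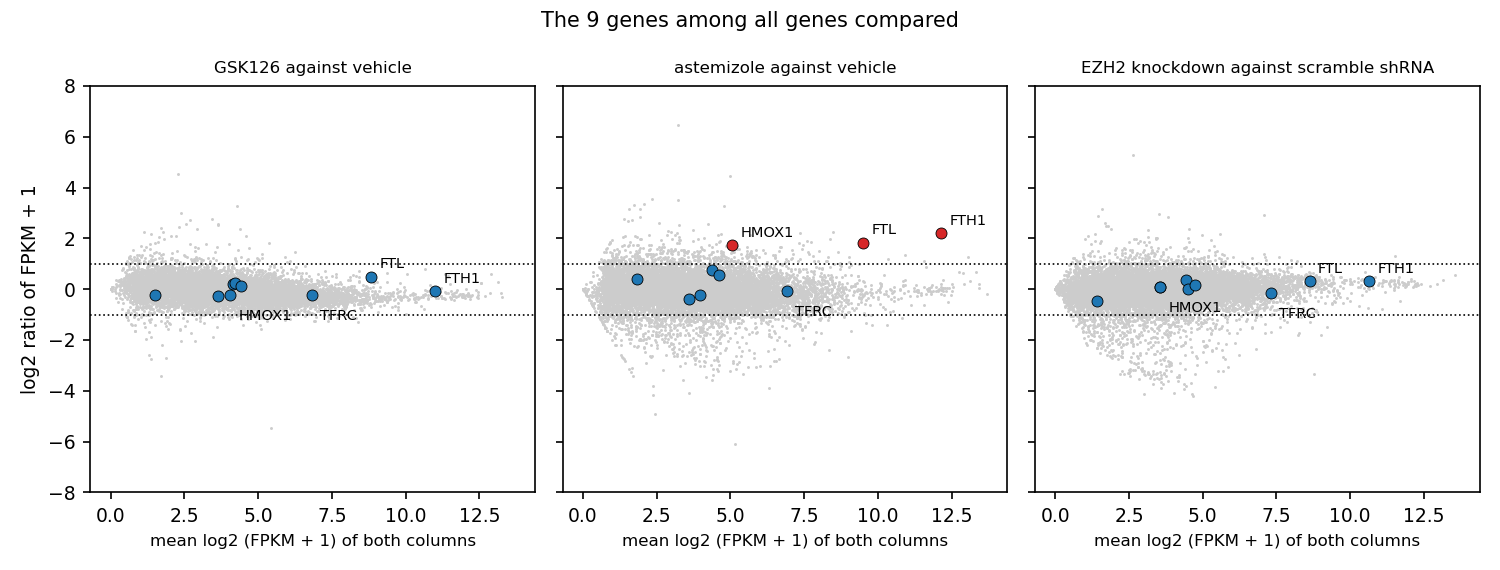
Log2 ratio of FPKM + 1 against the mean log2 level of both columns for 12930 genes (grey) in 3 comparisons, with the 9 members as large points, red past 2-fold (dotted lines). FTH1 and FTL lie at the right, among the most abundant genes, and pass the upper dotted line with astemizole together with HMOX1.

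The other genes of iron and heme handling were described from lists written with earlier results of these data known. Of 63 measured genes outside the members, 1 was at least 2-fold higher and 2 lower with astemizole, 2 higher and 0 lower with GSK126, and 1 higher and 2 lower with the knockdown. Over all genes 9.02%, 2.00% and 7.04% passed 2-fold in either direction. The balance with astemizole turned with the setting: 3 were higher and 2 lower after TPM rescaling (each column scaled to the same sum) or median centring, 3 and 1 against scramble shRNA, and 4 and 3 with a pseudocount of 0.1 FPKM. Their median log2 ratios were -0.05, -0.24 and -0.06, against -0.06, -0.04 and 0.03 over all genes, and these all-gene shares and medians stand beside each list described next.

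In the uptake list of 13 measured genes, LCN2, which encodes an iron-trafficking lipocalin, stood at 16.4 FPKM with astemizole and 0.492 with vehicle (log2 ratio 3.54). It stood at 0.470 FPKM with GSK126 and was listed at 0 in both lentiviral columns. In the knockdown column SLC39A14, a transporter of zinc and of iron not bound to transferrin, stood at 10.7 FPKM against 36.1 with scramble shRNA (-1.66), and between 27.2 and 37.5 FPKM with vehicle and the drugs. TFR2, the second transferrin receptor, stood at 2.58 FPKM in the knockdown column against 7.28 (-1.21), and at 3.35 with astemizole against 7.17 with vehicle (-0.91).

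TF, the transferrin gene, stood at 8.61 FPKM with GSK126, 1.24 with vehicle, 0.0312 with astemizole, 0.0262 in the knockdown column and was listed at 0 with scramble shRNA. TF is a liver gene, and 13 of 13 liver markers checked were highest with GSK126, their summed level being 198 FPKM there, 22.6 with vehicle and between 2.27 and 6.14 in the other columns. Of the 13, 5 were listed at 0 in the astemizole column, 6 in the scramble column and 3 in the knockdown column. The part of such RNA in the TF values was not tested, nor was where such RNA came from. In these bulk libraries a different number of cells of a type and a different amount of RNA per cell cannot be told apart. BMP6, a ligand that induces hepcidin, stood at 11.6 FPKM with GSK126 against 4.51 with vehicle (1.19). Hepcidin itself, HAMP, was at 0.239 FPKM with GSK126, below the 1 FPKM filter, and listed at 0 elsewhere. This is the column in which the liver markers were highest. The part of such RNA in the HAMP and BMP6 values was not tested either, so they are not read as a response of hepcidin.

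Ferritin and heme oxygenase are abundant in macrophages and red cell precursors, so markers of these cells were read beside them. Of 7 macrophage and blood cell markers, 3 were listed at 0 with astemizole (C1QA, PTPRC and CD14) and 3 were higher there than with vehicle: CD68 at 3.12 against 2.55 FPKM, CSF1R at 0.0654 against 0.0466, and CD163 at 0.0427, listed at 0 with vehicle. LYZ was lower, at 0.262 against 1.03 FPKM, and the summed level was 3.49 FPKM with astemizole against 3.75 with vehicle. The part of such RNA in the ferritin and HMOX1 values was not tested. The 8 erythroid markers summed to 0.240 FPKM with astemizole and 0.169 with vehicle. The 5 fibroblast markers summed to between 1.05 and 3.07 FPKM over the columns.

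Of 11 measured heme synthesis genes, 1 was at least 2-fold lower with astemizole: CPOX, the coproporphyrinogen oxidase, at 6.70 FPKM against 19.4 with vehicle (-1.40). Its other values were 11.9 FPKM (GSK126), 16.1 (scramble shRNA) and 12.5 (knockdown). ALAS1, the rate-limiting enzyme outside red cells, had ratios of -0.05, 0.23 and 0.28 for GSK126, astemizole and the knockdown. The medians of the list were -0.16, 0.07 and -0.06.

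In the 10 measured genes of heme breakdown and transport the median was 0.62 with astemizole, -0.17 with GSK126 and 0.21 with the knockdown, and HMOX1 alone passed 2-fold. With astemizole BLVRB, a biliverdin reductase, was at 333 FPKM against 211 with vehicle (0.65), the heme transporter SLC48A1 at 18.1 against 10.6 (0.72), and BACH1, the heme-sensing repressor of HMOX1, at 5.83 against 3.46 (0.62). Of the 10 genes, 8 had ratios above 0 with astemizole.

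**Figure D4:**
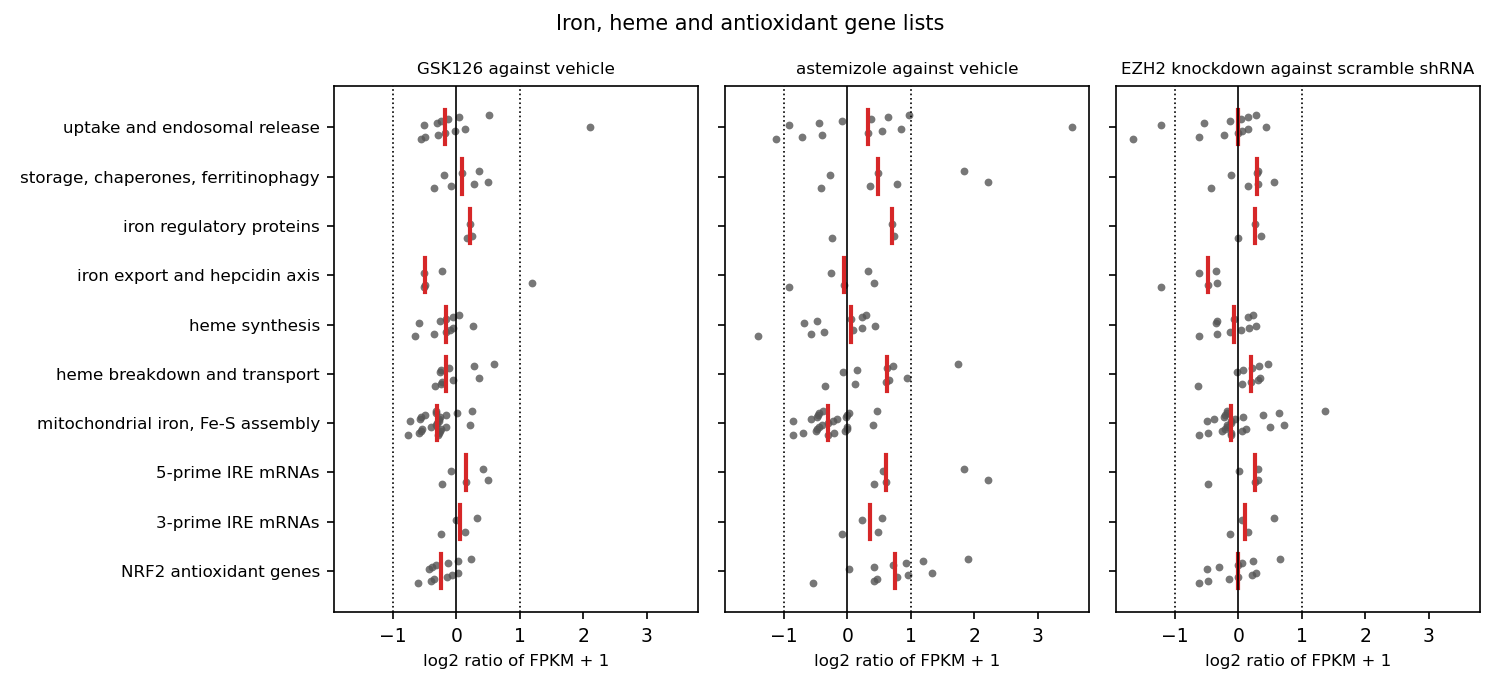
Log2 ratio of FPKM + 1 for each measured gene (grey points) of 10 lists in 3 comparisons, with the list median in red and 2-fold as dotted lines; members are included in the lists, and a gene may stand in 2 of them. The medians with astemizole include 0.76 for the NRF2 list, 0.71 for the 3 iron regulatory genes, 0.62 for heme breakdown and -0.31 for iron-sulfur assembly.

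Mitochondrial iron import and iron-sulfur cluster assembly, with 25 genes, had medians of -0.30 with GSK126, -0.31 with astemizole and -0.12 with the knockdown. The control columns differed by -0.26 in the same list, with 21 of 25 genes lower in scramble shRNA. No gene of it passed 2-fold with either drug. With the knockdown FDXR, the ferredoxin reductase and a known p53 target, stood at 67.8 FPKM against 25.8 (1.36), and at 39.1 with vehicle, 23.1 with GSK126 and 52.1 with astemizole. ISCU, the scaffold protein of cluster assembly, was highest with astemizole at 98.8 FPKM against 70.8 with vehicle (0.47).

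In the storage list, NCOA4, the receptor that carries ferritin to the lysosome, stood at 93.2 FPKM with astemizole against 72.3 with vehicle (0.36), and at 58.3 in the knockdown column against 79.0 with scramble shRNA (-0.43). The iron chaperone genes PCBP1 and PCBP2 had ratios of -0.42 and -0.26 with astemizole. The ferritin chains were the only genes past 2-fold among the 7 measured of this list in that comparison.

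Sorted by the place of the known iron-responsive element, the mRNAs with a 5′ element described here had ratios with astemizole of 0.41 for SLC40A1, 0.61 for EPAS1, which encodes a hypoxia-inducible factor subunit, 1.84 for FTL and 2.21 for FTH1. The 4 mRNAs with a 3′ element ranged from -0.09 for TFRC to 0.54 for SLC11A2, with CDC42BPA at 0.48. Of these 4 the median was 0.36 and 0 passed 2-fold.

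Of 12 antioxidant genes known as NRF2 targets and not among the members, 3 were at least 2-fold higher with astemizole, where 3.53% of all genes were, and 0 lower. The median was 0.76, against -0.06 over all genes, and 11 of 12 were above 0. This list too was written with earlier results of these data known, so its count and median are a description and not independent support. SLC7A11, the cystine transporter, stood at 24.9 FPKM against 5.92 (1.91), the malic enzyme ME1 at 135 against 53.3 (1.33) and OSGIN1 at 9.23 against 3.47 (1.19), while NQO1 was just under 2-fold at 147 against 75.2 (0.96). With GSK126 and the knockdown the medians were -0.23 and -0.01, against -0.04 and 0.03 over all genes, and 0 of 12 passed 2-fold in either comparison.

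Astemizole and GSK126 can be set side by side only as values, since no dose is given. Of the 9 members, 3 were at least 2-fold higher with astemizole than with GSK126 and 0 lower, where 5.47% of all genes passed 2-fold. FTH1 had a log2 ratio of 2.29, HMOX1 1.98 and FTL 1.34.

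Genes closest in pattern were sought among 9374 genes with a known symbol that reached 5 FPKM in any column. The measure was the Euclidean distance between log2 (FPKM + 1) profiles over the 5 columns, each centred on its own mean. This was done for each of the 3 members whose FPKM + 1 spanned 2-fold or more. SLC40A1 spanned 2.50-fold as plain FPKM but less than 2-fold as FPKM + 1 and was not included. Closest to FTH1 were NUPR1, a stress-induced nuclear protein gene (distance 0.31; 162, 179, 770, 130 and 125 FPKM with vehicle, GSK126, astemizole, scramble shRNA and knockdown), and HMOX1 (0.38). Closest to FTL were ATXN1 (0.20; 0.962, 2.04, 6.64, 1.20 and 1.55 FPKM in the same order) and NPC2, which encodes the lysosomal cholesterol carrier (0.21). NPC2 stood at 94.3 FPKM with vehicle, 126 with GSK126 and 317 with astemizole. Closest to HMOX1 were CSTA, a cysteine protease inhibitor gene (0.27), and BEST1 (0.31), the gene that overlaps FTH1. ATXN1 and BEST1 reached 5 FPKM in the astemizole column alone, so the filter chose them for that column, and at their low levels the added 1 FPKM bears on the distance. FTL ranked 26 among the genes closest to FTH1. Each likeness rests on 5 points.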

How the data were processed

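RNA-seq of polyadenylated RNA from 6 libraries of C4-2 cells was analysed from 1 table. The values are FPKM computed by the authors, per the labels, which name the unit; TopHat2, Cuffdiff and the hg19 build are listed, without versions, per the submitters' processing notes. The sources used here do not give the annotation, any filters or how the knockdown column was made.

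Of 28503 rows, 27 with names turned into dates and 1686 short non-coding RNA genes were left out; 12930 genes that reached 1 FPKM somewhere among the 5 columns were compared, 12140 of them with a symbol known to the reference tables. A pseudocount of 1 FPKM was added before log2, which understates differences of low genes. Steps ran in Python 3.11.15 with pandas 2.3.3 and were tested on simulated data. The members and lists were chosen with earlier results of these data known. Genes outside the members were named where they passed 2-fold at 5 FPKM or more in 1 column, up to 3 per list and comparison. Others (STEAP1, STEAP2, HMOX2, FBXL5, HAMP, ALAS1, BLVRB, SLC48A1, BACH1, ISCU, NCOA4, PCBP1, PCBP2, EPAS1, CDC42BPA, NQO1 and the TFR2 value with astemizole) were chosen after their values were seen. Some genes of the lists are not reported here. Alternatives were a pseudocount of 0.1, filters at 0 and 5 FPKM, rescaling to 1000000 (TPM), median centring, the other control and a 1.5-fold threshold.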

Additional observations from a re-analysis of the deposited data

How the results depend on the processing

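The member counts kept their values under the alternative settings (3 with astemizole, 0 with GSK126 and 0 with the knockdown), except 4 with astemizole at 1.5-fold. With astemizole the log2 ratio lay between 2.21 and 2.78 for FTH1, 1.84 and 1.94 for FTL and 1.74 and 2.41 for HMOX1, the upper values being those against scramble shRNA. Signs of uncalled ratios did change: FTH1 with GSK126 was 0.13 after TPM rescaling and 0.48 against scramble shRNA, HMOX1 with GSK126 was 0.43 against scramble shRNA, and with the knockdown FTH1 was -0.25, HMOX1 -0.59, STEAP3 -0.19 and TFRC 0.30 against vehicle. With GSK126 against scramble shRNA SLC11A2 was -0.19, IREB2 -0.13 and ACO1 -0.01; IREB2 with the knockdown was -0.03 after TPM rescaling. SLC40A1 has no value under the 5 FPKM filter. TPM rescaling moved the median of all genes by 0.19 with GSK126, and the share of higher genes among those past 2-fold from 52.5% to 80.3%; against scramble shRNA it was 79.4%. With astemizole that share was 39.1%, and 54.0% against scramble shRNA. The 63 other iron and heme genes gave counts past 2-fold that moved more: with GSK126 from 2 to 4 (pseudocount 0.1, no filter), 1 (other control) and 8 (1.5-fold); with astemizole from 3 to 7 (pseudocount 0.1, with or without a filter), 5 (TPM rescaling, and median centring) and 19 (1.5-fold); with the knockdown from 3 to 5 (other control) and 9 (1.5-fold). The cause was not tested. No paired analysis was possible because each condition has 1 column of values, and for the same reason no replicate could be left out. Depth is unknown, which limits SLC40A1 and other genes near 1 FPKM most.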
